A study of Mus musculus with 3 samples.

Results

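The Krüppel-like factor (KLF) genes examined here are Klf1, Klf2, Klf3, Klf4, Klf6, Klf7, Klf10, Klf12 and Klf13, 9 of 21826 annotated mouse protein-coding genes. They were chosen by name, with earlier results of these data known, and are part of a larger gene family. Each was followed over its gene body and 20 kb on each side. The data are DNase-seq libraries of natural killer cells, innate lymphocytes with cytotoxic granules, from 3 biological replicates of 1 group. All 3 libraries came from primary cells of virgin male B6CASTF1/J mice, F1 hybrids of C57BL/6 and CAST, at an age of 2 months, and no treatment or engineered allele is named. The 3 carry the same donor label, nothing says that they came from separate animals, and no sort or gate for the cells is given, which leaves the spread between them possibly technical. DNase I cuts DNA that nucleosomes leave free, so a peak is a site with many cuts and a footprint is a short gap in the cuts within such a site, where a bound protein shields the DNA. With 1 group there is no contrast between conditions, and all values are descriptions without a test.

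KLF proteins are transcription factors with zinc fingers at the C-terminal end that bind GC boxes and CACCC boxes in promoters and enhancers, as do the related SP proteins. Klf2 keeps lymphocytes quiescent and directs their trafficking, and in mice it limits the proliferation of natural killer cells. Klf1 is the erythroid member, needed for adult globin expression, while Klf3 and Klf12 are mainly repressors that recruit CtBP, and Klf10 is induced by TGF-beta signalling.

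Replicates 1, 2 and 3 held 40484, 84564 and 81854 peaks and 101990, 239483 and 222990 footprints, so replicate 1 held far fewer of both. Promoters, taken as 500 bp on each side of an annotated start site, were open in all 3 libraries for 8 of 10 natural killer markers, 6 of 10 B cell, 3 of 10 T cell, 3 of 10 monocyte and macrophage, 3 of 10 erythroid, 3 of 10 endothelial and 0 of 10 neutrophil markers. In replicates 1, 2 and 3 taken singly, 8, 10 and 10 natural killer and 6, 10 and 9 B cell markers were open. T cell markers gave 3, 8 and 6, monocyte and macrophage 4, 6 and 5, erythroid 3, 4 and 5 and endothelial 3, 6 and 7. The natural killer and B cell counts were thus nearly alike in replicates 2 and 3. Of all protein-coding genes, 51.3% were open in all 3 libraries, and 51.7%, 58.8% and 58.0% in replicates 1, 2 and 3 taken singly. Cd4 and Cd8a of the T cell list, and Alas2, Epb42, Slc4a1, Hbb-bt and Hba-a1 of the erythroid list, had no promoter peak in any library. The part of other cells in the values below was not tested, and fewer cells of a type and less accessible DNA per cell cannot be told apart in bulk libraries.

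Of the 9 KLF genes, 8 had an open promoter in all 3 libraries, set against 51.3% of all protein-coding genes. In single libraries it was 8 in each, set against 51.7%, 58.8% and 58.0% of all genes in replicates 1, 2 and 3. The exception was Klf1, whose promoter had a peak in none. In 5 of the 9 (Klf2, Klf6, Klf7, Klf10 and Klf13) the strongest promoter peak ranked at the 90th percentile or higher among all peaks of its library in every library, set against 18.0% of all genes. The promoter regions of these 5 genes and of Klf4, which ranked lower, are printed next, read 5′ to 3′ along the gene from the reference genome of RefSeq (GRCm38, also named mm10), with bases that lay in footprints of all 3 libraries in capitals. The reference is the C57BL/6 sequence, so bases that differ on the CAST chromosome are not shown. The first 3 share a pair of elements described below, and the other 3 show GC boxes under footprints.

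Klf2 promoter, chr8:72318801-72319032, plus strand: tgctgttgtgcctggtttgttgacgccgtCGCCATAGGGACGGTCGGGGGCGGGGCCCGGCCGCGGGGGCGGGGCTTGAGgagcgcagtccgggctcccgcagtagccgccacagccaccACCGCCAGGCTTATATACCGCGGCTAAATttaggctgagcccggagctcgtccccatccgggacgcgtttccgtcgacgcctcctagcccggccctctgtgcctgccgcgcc
Klf6 promoter, chr13:5861182-5861481, plus strand: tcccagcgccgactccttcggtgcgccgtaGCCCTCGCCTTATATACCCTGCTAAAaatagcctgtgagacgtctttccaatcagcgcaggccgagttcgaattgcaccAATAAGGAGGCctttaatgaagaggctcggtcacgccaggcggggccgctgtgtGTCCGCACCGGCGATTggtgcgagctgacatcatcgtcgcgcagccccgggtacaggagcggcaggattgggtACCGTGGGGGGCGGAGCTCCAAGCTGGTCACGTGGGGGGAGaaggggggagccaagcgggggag
Klf7 promoter, chr1:64121601-64121880, minus strand: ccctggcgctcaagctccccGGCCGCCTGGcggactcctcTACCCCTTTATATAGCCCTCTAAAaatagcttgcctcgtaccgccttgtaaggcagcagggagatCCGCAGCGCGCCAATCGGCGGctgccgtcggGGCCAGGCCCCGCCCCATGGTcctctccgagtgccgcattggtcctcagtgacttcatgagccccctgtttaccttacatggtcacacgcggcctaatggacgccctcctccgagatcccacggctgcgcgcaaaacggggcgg
Klf10 promoter, chr15:38300707-38300941, minus strand: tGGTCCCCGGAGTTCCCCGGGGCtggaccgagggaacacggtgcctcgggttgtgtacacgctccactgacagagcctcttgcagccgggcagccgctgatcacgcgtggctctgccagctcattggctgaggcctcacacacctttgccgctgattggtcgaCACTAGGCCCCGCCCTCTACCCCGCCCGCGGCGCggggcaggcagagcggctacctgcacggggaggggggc
Klf13 promoter, chr7:63938916-63939215, minus strand: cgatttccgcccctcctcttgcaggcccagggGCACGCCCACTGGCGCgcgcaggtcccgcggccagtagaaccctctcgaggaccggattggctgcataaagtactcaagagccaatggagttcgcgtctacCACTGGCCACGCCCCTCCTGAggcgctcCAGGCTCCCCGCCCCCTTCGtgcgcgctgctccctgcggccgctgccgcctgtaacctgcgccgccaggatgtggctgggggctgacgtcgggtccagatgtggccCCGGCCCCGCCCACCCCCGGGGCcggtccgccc
Klf4 promoter, chr4:55532467-55532706, minus strand: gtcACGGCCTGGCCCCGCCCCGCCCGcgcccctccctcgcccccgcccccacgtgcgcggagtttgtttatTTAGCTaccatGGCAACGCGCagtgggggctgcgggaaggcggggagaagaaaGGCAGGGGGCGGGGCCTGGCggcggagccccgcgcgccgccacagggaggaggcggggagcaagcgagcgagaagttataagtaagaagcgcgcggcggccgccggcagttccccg

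Between 23.8% (Klf10) and 34.5% (Klf2) of the printed promoter bases lay in footprints of all 3 libraries. The Klf2 stretch held 80 such bases, in a long run over GC boxes and in a run that begins with ACCGCCAGGCTTATATA. These 6 stretches are rich in G and C, from 63.3% in Klf6 to 73.3% in Klf4, with between 20 CpG pairs in Klf10 and 31 in Klf4.

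Klf6, a broadly expressed factor first studied in liver and in tumours, had the highest mean promoter rank of the members. Its strongest promoter peak had a deposited signal of 11.5, 27.4 and 30.9 in replicates 1, 2 and 3, at percentiles of 99.5, 99.8 and 99.8 within each library. The 3 percentiles lay close together, with a mean of 99.7 ± 0.157 (SD, n = 3), which placed Klf6 at rank 154 of the 11192 genes open in all 3 libraries. The signal has its own scale in each library, so percentiles and not raw signals are set side by side. The 1 exception is the ratio of replicates 2 and 3 given below, which was centred first.

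Klf10 followed with signals of 11.9, 24.4 and 27.9 and percentiles of 99.6, 99.5 and 99.7 in replicates 1, 2 and 3. Its mean of 99.6 ± 0.0793 (SD, n = 3) cannot be separated from that of Klf6, since the 3 percentiles of the one fall within the spread of the other, and its rank was 203. Klf2 gave signals of 9.59, 27.2 and 28.4 and percentiles of 98.6, 99.7 and 99.7, with a mean of 99.3 ± 0.670 (SD, n = 3) and rank 359. In replicate 1 Klf2 was lower than Klf6 and Klf10, and in replicates 2 and 3 it lay between them.

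Klf13, a factor known for late activation of the chemokine gene Ccl5 in T lymphocytes, had promoter signals of 7.89, 19.9 and 22.8 at percentiles of 96.9, 98.8 and 99.2, with a mean of 98.3 ± 1.26 (SD, n = 3). Klf7, studied mainly in neurons and fat cells, had signals of 7.02, 19.1 and 19.7 at percentiles of 95.5, 98.6 and 98.5, with a mean of 97.5 ± 1.80 (SD, n = 3). With the peak nearest the first Klf7 start in place of the strongest, its mean was 89.8. The ranges of Klf13 and Klf7 overlapped each other, though Klf13 was higher than Klf7 in each of the 3 libraries. Both means lay above 89.5, the median of all genes open in all 3 libraries.

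Klf3, Klf4 and Klf12 lay lower. Klf3 had signals of 3.42, 6.72 and 7.49 at percentiles of 83.8, 91.5 and 91.8, with a mean of 89.0 ± 4.51 (SD, n = 3), or 82.4 with the peak nearest its first start. Klf4, known for its part in monocyte differentiation and in pluripotency, had signals of 2.64, 8.62 and 6.88 at percentiles of 78.7, 93.6 and 90.9, with a mean of 87.8 ± 7.92 (SD, n = 3). Klf3 and Klf4 overlapped across their libraries and did not differ beyond their spread. At Klf4 the strongest peak of replicate 1 was another peak than that of replicates 2 and 3, and the region 155 bp upstream of the start, printed above, ranked at 72.9, 93.6 and 90.9.

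Among the open members Klf12 had the lowest promoter, with signals of 2.10, 2.77 and 3.48. These gave percentiles of 73.2, 80.6 and 82.6 and a mean of 78.8 ± 4.93 (SD, n = 3). At Klf12, too, the strongest peak of replicate 1 lay in another region than that of replicates 2 and 3. The region 148 bp from the start ranked at 73.2, 75.7 and 81.3. The one centred 892 bp upstream ranked at 63.2, 80.6 and 82.6. Klf12 lay below Klf3 in each of the 3 libraries. Of the 11192 genes open in all 3, 26.1% had a lower mean than Klf12, against 48.4% below Klf3 and 98.6% below Klf6. Over the 8 open members the median of the mean percentiles was 97.9, set against 89.5 over all genes open in all 3.

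**Figure D1:**
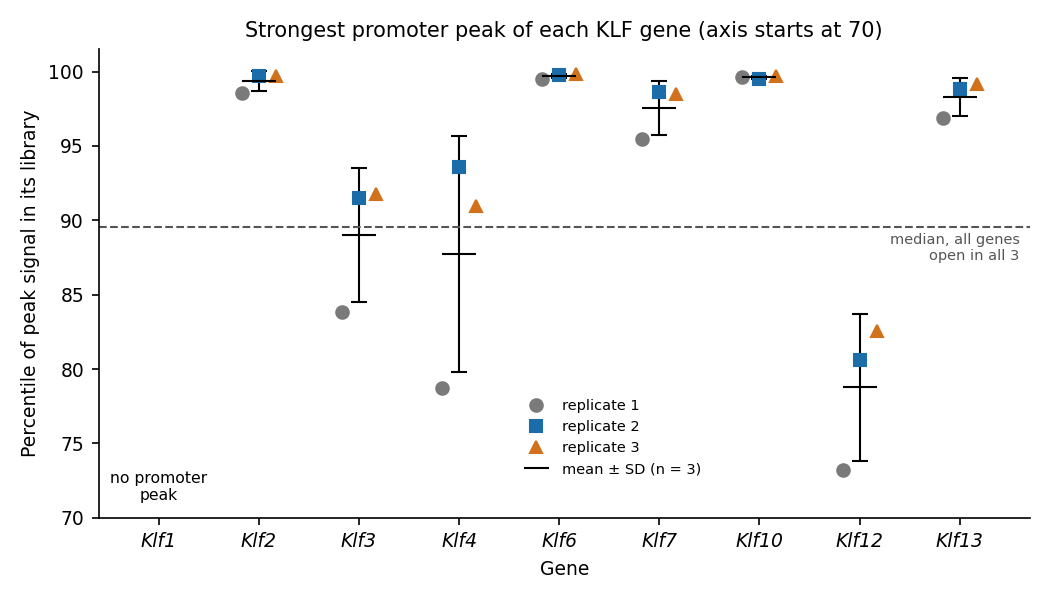
Percentile of the strongest promoter peak among all peaks of its library (vertical axis, starting at 70) for each KLF gene, with a point per replicate and a bar for the mean ± SD of 3 replicates. Klf2, Klf6 and Klf10 sit above 98 in every library, Klf12 has a mean of 78.8, Klf1 has no promoter peak, and the dashed line marks the median of all open genes at 89.5.

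Over the percentiles of the 3 libraries, the genes nearest to Klf6 by Euclidean distance were Pop7, Phf12 and Eif4a1, at distances of 0.0257, 0.0451 and 0.0504 percentile units over 3 libraries. Those nearest to Klf12 were Gm45785, Hace1 and Nt5c2, at distances of 1.10, 1.40 and 1.45.

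The deposited intervals of significant cut rate give the breadth of cutting at each start. Within 500 bp of the first start site, 1001 bases in each library lay in intervals with a deposited false discovery rate (FDR) of 0.05 or less at Klf2 and at Klf13, which is the whole stretch. Klf10 had 925, 1001 and 1001 such bases, and Klf3 had 947, 1001 and 1001. Klf12 had 859, 955 and 944 although its peak ranked lowest, so the breadth of cutting did not follow the rank of the strongest peak. Klf4 varied most, with 561 bases in replicate 1, 989 in replicate 2 and 803 in replicate 3. Klf6 had 818, 957 and 846 and Klf7 had 895, 890 and 877. At Klf1 there were 0 in each library, and the median of all genes was 197 as a mean over the 3 libraries.

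Several KLF genes have start sites beyond the first. Klf7, on the minus strand of chromosome 1 (64029447 to 64122282), had its strongest region inside the gene, 501 bp from its first start, at chr1:64121601-64121960. That region lies downstream of the first start and upstream of a pair of later start sites, 791 and 800 bp from the first. At Klf10 (chr15:38291463-38300706) a further region 1465 bp from the first start, beside start sites at 911, 1624 and 1867 bp, had signals of 3.28, 7.71 and 11.4 and percentiles of 83.0, 92.7 and 95.3. This second Klf10 promoter was lower than the first in every library.

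Klf3 (chr5:64803388-64832901) had a weaker peak at start sites 8951 and 8996 bp from its first, at percentiles of 51.5, 74.7 and 68.2, and no peak at the start site 23421 bp away. Klf13 (chr7:63886351-63938915) had a peak at the start site 2614 bp away, at 44.3, 72.1 and 78.5, and none at 14045 bp. The Klf12 start site 134915 bp inside the gene had no peak, so the Klf12 signal came from the start sites at 0 and 195 bp.

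The strongest promoter peak of all 8 open members held at least 1 GC box (GGGCGG, or CCGCCC on the other strand) in the 300 bases around the middle of the peak, set against 71.6% of the 11192 promoters open in all 3 libraries. There were 9 GC boxes in that window at Klf3, 4 at Klf4 and at Klf12, 2 at Klf2, Klf7, Klf10 and Klf13 and 1 at Klf6, against a median of 1. A CACCC box (CACCC or GGGTG) occurred in 3 of the 8, against 64.0%. The ETS core CCGGAA was in the windows of 0 of the 8 members, against 33.6% of all these promoters, the NRF1 motif (GCGC, any 2 bases, GCGC) in 0 against 16.7% and the RUNX motif TGTGGT in 0 against 11.7%. The CRE motif TGACGT was in 1 of the 8, against 14.3%, and the CTCF motif (letters given below) in 1, against 16.4%. With only 8 windows, counts of 0 or 1 cannot be told apart from shares as low as these last 4. Each motif was searched on both strands, and a base could count towards more than 1 motif. A match of letters is not a bound site, and no match says only that the letters are not in that window.

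GC boxes also lay under footprints. In the Klf2 promoter the pair of GC boxes at 185 and 166 bp upstream of the start lay wholly in footprints of all 3 libraries. The same held for the GC box of Klf6 at 56 bp upstream and for those of Klf10 at 63 and 51 bp upstream. In Klf13 the boxes at 131 and 27 bp upstream were covered in all 3 libraries, while those at 294 and 6 bp upstream were covered in none. In Klf4 those at 226, 221 and 110 bp upstream were covered in all 3 and the one at 198 bp upstream was not.

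Over the gene bodies and 20 kb on each side, the members held 167, 344 and 329 footprints in replicates 1, 2 and 3. A GC box, with at least 50% of it inside, was in 15.6%, 13.1% and 12.8% of them, against 9.96%, 7.18% and 7.28% of all footprints of the same libraries. In promoter footprints alone the share was 25.6% ± 2.36 in member windows and 15.3% ± 0.162 in the whole libraries (SD, n = 3), and outside promoters it was 4.75% ± 0.833 against 2.85% ± 0.334. The share pooled over the members was thus higher in each library and in both classes. Outside promoters it rested on 4, 10 and 8 of 71, 216 and 201 footprints. Single members differed. Klf1, Klf3, Klf4, Klf10 and Klf13 lay above the library share in each library. Klf10 had a GC box in 8 of 26, 10 of 43 and 10 of 46 footprints. Klf2 and Klf7 lay on both sides. Klf6 lay below in each library, with 1 of 12, 2 of 32 and 2 of 31. So did Klf12, with 0 of 19, 2 of 30 and 1 of 31. The CACCC box was in 5.85% ± 1.55 of footprints in member windows and 5.63% ± 0.588 in the libraries (SD, n = 3). In promoter footprints its share was 7.55% ± 1.19 at the members and 5.30% ± 0.456 in the libraries, higher at the members in each library. Outside promoters it was 4.29% ± 2.61 against 5.85% ± 0.598 (SD, n = 3), and there the libraries did not go the same way. The members were lower in replicate 1 (1.41%, which is 1 of 71 footprints, against 5.17%) and in replicate 3 (4.98% against 6.23%). They were higher in replicate 2 (6.48% against 6.17%). No footprint at the members held the ETS core, 0 of 167, 0 of 344 and 0 of 329, which allows shares of up to 1.80%, 0.872% and 0.912% by counting error, against 2.23%, 1.71% and 1.84% of all footprints.

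The Klf2, Klf6 and Klf7 promoters shared an arrangement that was seen on reading the printed sequences. Each held the letters TTATATA followed, 13 bases on in Klf2 and 12 bases on in Klf6 and in Klf7 (start to start), by a match to the MEF2 motif. The matches read CTAAATTTAG in Klf2 and CTAAAAATAG in both Klf6 and Klf7. They began 89 bp upstream of the Klf2 start, 249 bp upstream of the Klf6 start and 330 bp upstream of the Klf7 start site that comes next along the gene. MEF2 proteins are activators, and in endothelial cells the ERK5 kinase acts through them to induce Klf2, which is given here as background.

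In all 3 promoters the 7 bases TTATATA lay wholly in footprints of every library. The same footprints reached into the MEF2 match and covered 6 of its 10 bases in Klf2 and 5 of 10 in Klf6 and in Klf7 in all 3 libraries. Each library had 3 member footprints with at least 50% of a MEF2 match, 1 in each of these promoters. That is 1.19% ± 0.523 of the footprints in member windows and 0.0599% ± 0.0113 of those in the libraries (SD, n = 3). The count of 3 was the same in each library, so the first SD reflects only the changing number of member footprints. The motif was taken from the member sequences, so the higher share at the members follows from that choice and is only a description.

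Around the strongest promoter peaks, the MEF2 match occurred in 3 of the 8 open members and in 0.706% of all 11192 promoters, and TTATATA in the same 3 members and in 0.876%. Both occurred together at the promoters of 10 genes, of which 3 were Klf2, Klf6 and Klf7. The other 7 were Cnpy4, Hexim1, Hist1h3i, Ifi203, Ostc, Rpl23a and Taf6, all named after their values were seen. Cnpy4 and Taf6 had the same mean percentile, 83.4, and may share 1 promoter peak, so the 10 genes may stand for fewer promoters. Because both motifs were taken from the sequences of the members, the count of members is fixed by that choice and serves only as a description.

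**Figure D2:**
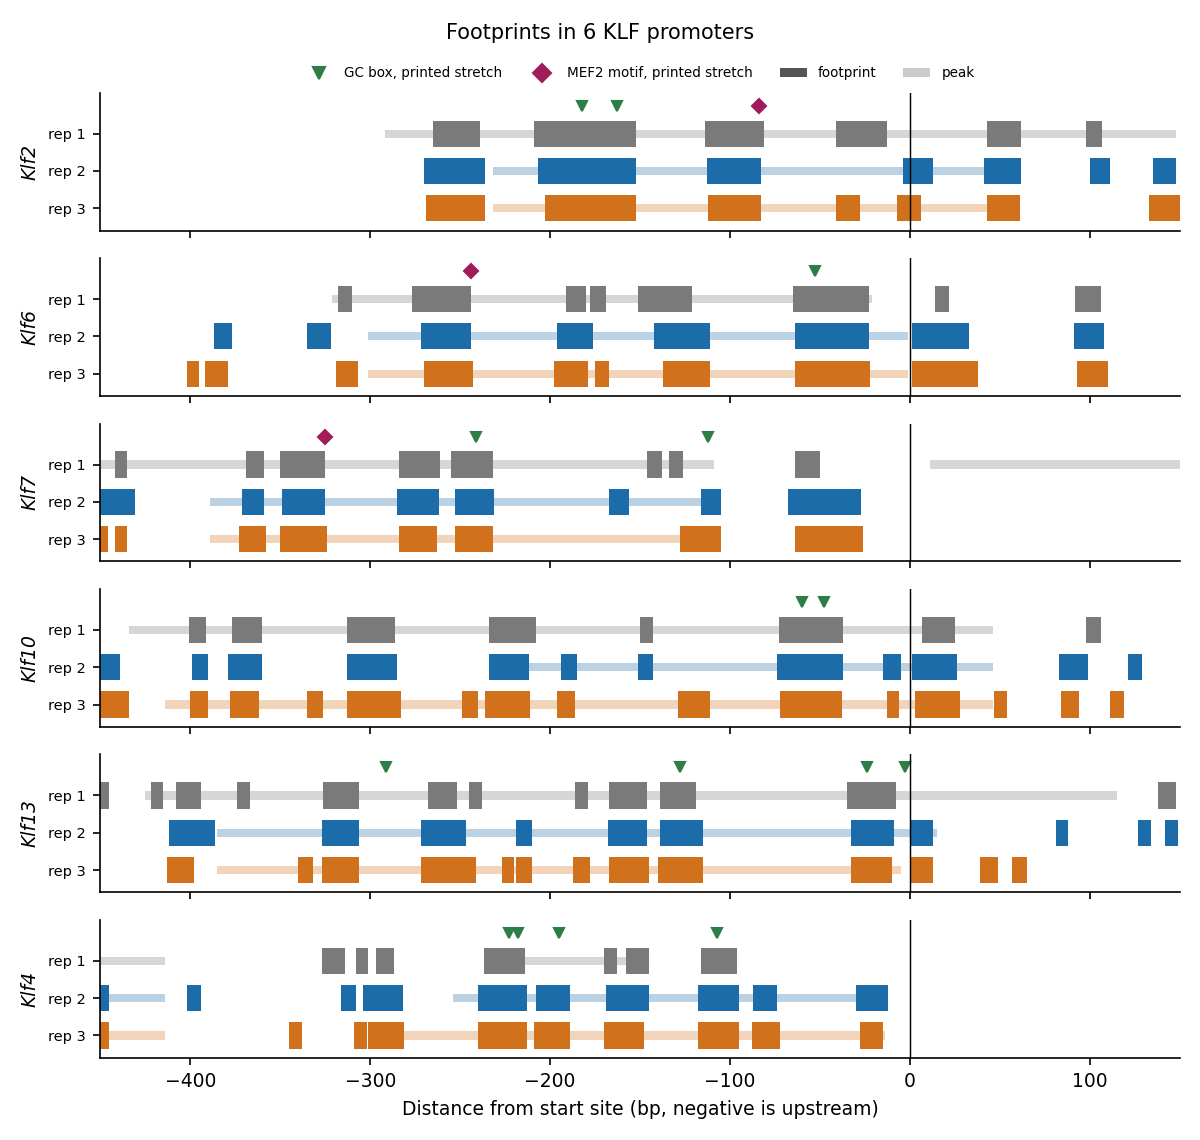
Peaks (thin pale bars) and footprints (thick bars) along 6 KLF promoters, by distance from the start site in bp, with 1 row per replicate; for Klf7 the distance is from its next start site downstream of the peak. The diamonds mark the MEF2 matches that begin 89, 249 and 330 bp upstream in Klf2, Klf6 and Klf7, at the edge of a footprint in all 3 replicates, and the triangles mark GC boxes of the printed stretches.

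Beyond the promoters, the windows of the members held 59, 95 and 97 peaks in replicates 1, 2 and 3. Peaks that overlapped between libraries were merged into 105 regions, of which 49 (46.7%) were found in all 3 libraries, set against 35.3% of all 99408 regions of the genome. Outside promoters, 30 of 79 (38.0%) were found in all 3, against 27.9% of such regions in the genome. A further 29 were found in exactly 2 libraries, and those were replicates 2 and 3 in all 29, beside the smaller number of peaks in replicate 1.

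The 49 regions shared by all 3 libraries comprised 17 promoter regions of the members themselves, 2 promoters of other genes, 5 in exons, 16 in introns and 9 between genes. Klf12 had 9 of them, 7 in introns, and Klf10 had 8, 4 of them between genes. Klf7 had the fewest, 3, with 2 at promoters.

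**Figure D3:**
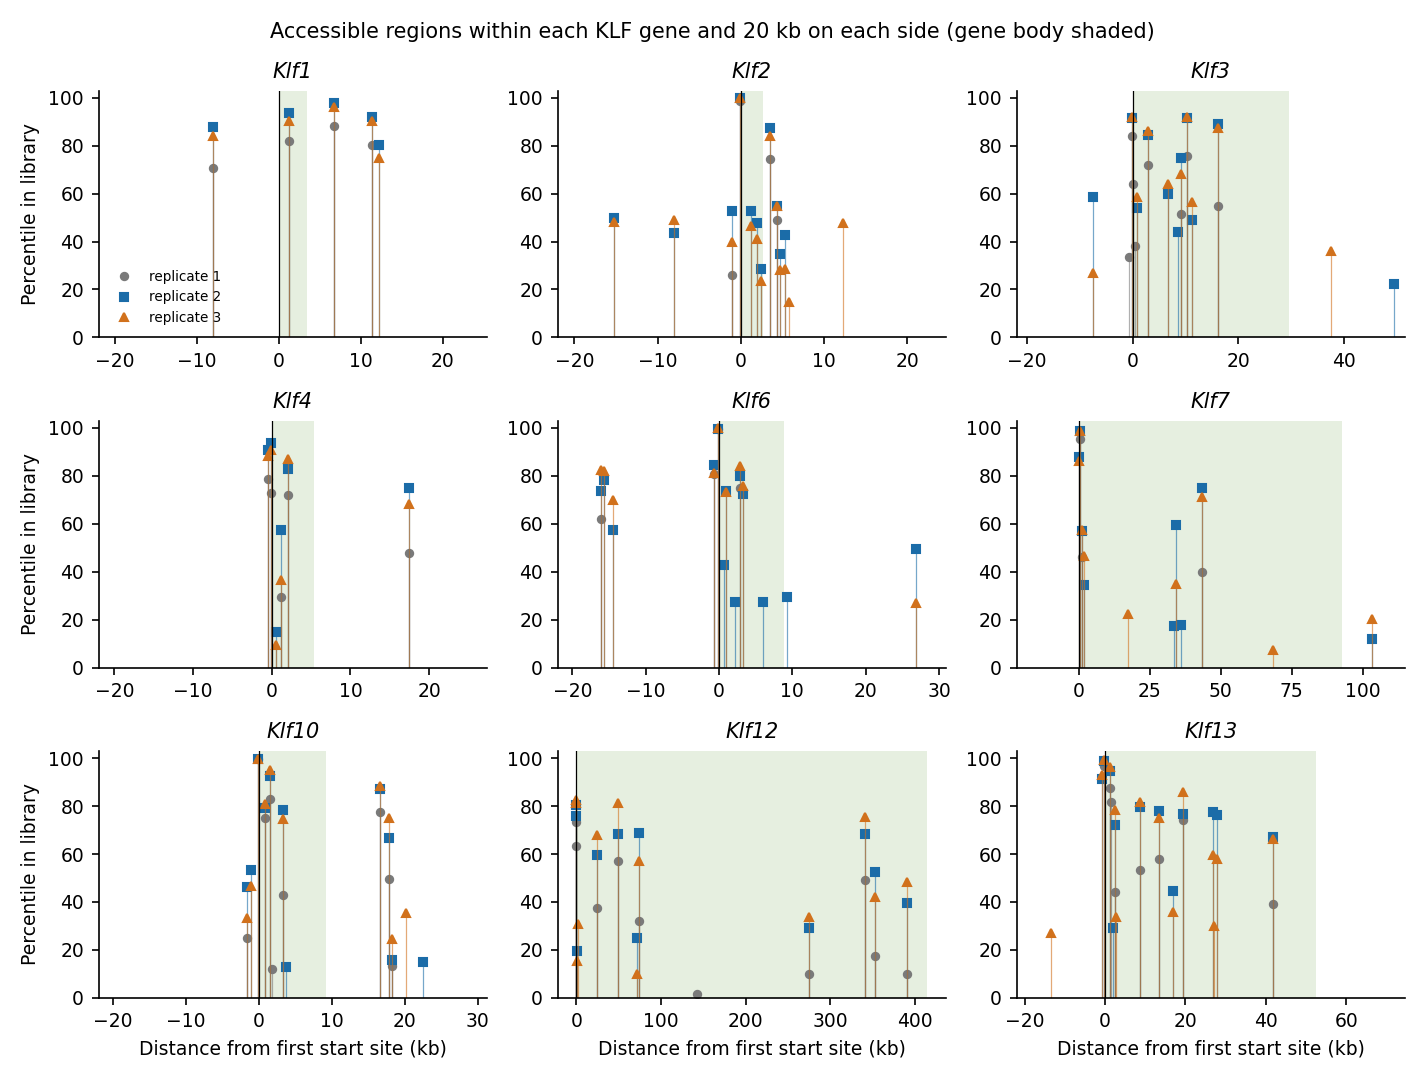
Percentile of each accessible region in its library (vertical axis) against distance from the first start site in kb for the 9 KLF genes, with 1 marker per replicate and the gene body shaded; horizontal axes differ. Klf1 has no marker at its start, and the Klf12 regions of introns reach 341268 bp and more into the gene.

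Klf2 (chr8:72319033-72321656) had 5, 13 and 14 peaks in its window of 42.6 kb. That is 25.03 ± 11.6 per 100 kb (SD, n = 3), the highest mean of the members. This rank did not hold throughout. In replicate 1 Klf2 had 11.7 per 100 kb and Klf10 18.3, and with the better-scoring 50% of peaks Klf2 fell to 10.2 per 100 kb, below Klf6 at 13.6 and 3 other members. Of 9335 genes with windows of like length (0.8 to 1.25 times), 95.6% had a lower mean number. Its strongest region outside the promoter, chr8:72322021-72323000, lay 3478 bp from the start in the stretch just beyond the gene, at percentiles of 74.5, 87.4 and 83.9. That region held 6, 16 and 10 footprints in replicates 1, 2 and 3, the highest mean number of any region at the members together with the Klf13 promoter, at 10.7 each.

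Klf13 had 9, 13 and 15 peaks and 34, 69 and 70 footprints, and 98.5% of 3563 genes with windows of like length had fewer footprints. The strongest region outside promoters at any member was in an intron of Klf13, chr7:63937521-63938040, 1134 bp from the start. Its signals of 4.24, 10.1 and 13.5 gave percentiles of 87.7, 94.8 and 96.4, higher than the promoters of Klf3, Klf4 and Klf12 in each library. It held 7, 10 and 9 footprints. A second intron region 19454 bp from the start, inside both Klf13 and the overlapping gene E030018B13Rik, ranked at 74.2, 76.6 and 85.9.

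Klf10 had 9, 11 and 10 peaks in its window, close to equal across the 3 libraries. Its strongest region away from promoters, chr15:38283961-38284160, lay 16645 bp from the first start, beyond the end of the gene, at percentiles of 77.6, 87.0 and 88.4. The region at the second Klf10 promoter held 10, 9 and 9 footprints, and that at the first held 7, 9 and 11.

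Klf6 (chr13:5861482-5870394) had 4, 13 and 9 peaks. An intron region 2881 bp from the start ranked at 75.1, 79.8 and 84.1, and a region 16071 bp upstream of the start at 62.1, 73.5 and 82.6. Both were far below the Klf6 promoter in every library.

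Klf4 (chr4:55527143-55532466) had 5, 7 and 8 peaks, with an exon region 2045 bp from the start at 72.1, 82.9 and 87.1 and a region beyond the gene, 17495 bp from the start, at 47.7, 75.1 and 68.3. Klf7 had 3, 9 and 10 peaks over a window of 133 kb, and its region outside promoters that was found in all 3 libraries, in an exon 43461 bp from the start, ranked at 39.7, 74.9 and 71.3. Klf7 thus had a high promoter and few regions shared elsewhere.

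Klf12 (chr14:99870632-100284679) had 11, 12 and 14 peaks over 454 kb, 2.72 ± 0.336 per 100 kb (SD, n = 3) and the lowest density of the members. Even so, 77.0% of 300 genes with windows of like length had a lower mean number of peaks. Its strongest intron regions lay 48738 bp from the start, at 57.1, 68.4 and 81.3, and 341268 bp from the start, at 49.2, 68.2 and 75.6.

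Over the 9 members the median density was 14.7 peaks per 100 kb, set against 5.11 over all genes, and 51.1 footprints per 100 kb against 14.9. In each measure 8 of the 9 lay above the median of all genes, and Klf12 lay below.

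**Figure D4:**
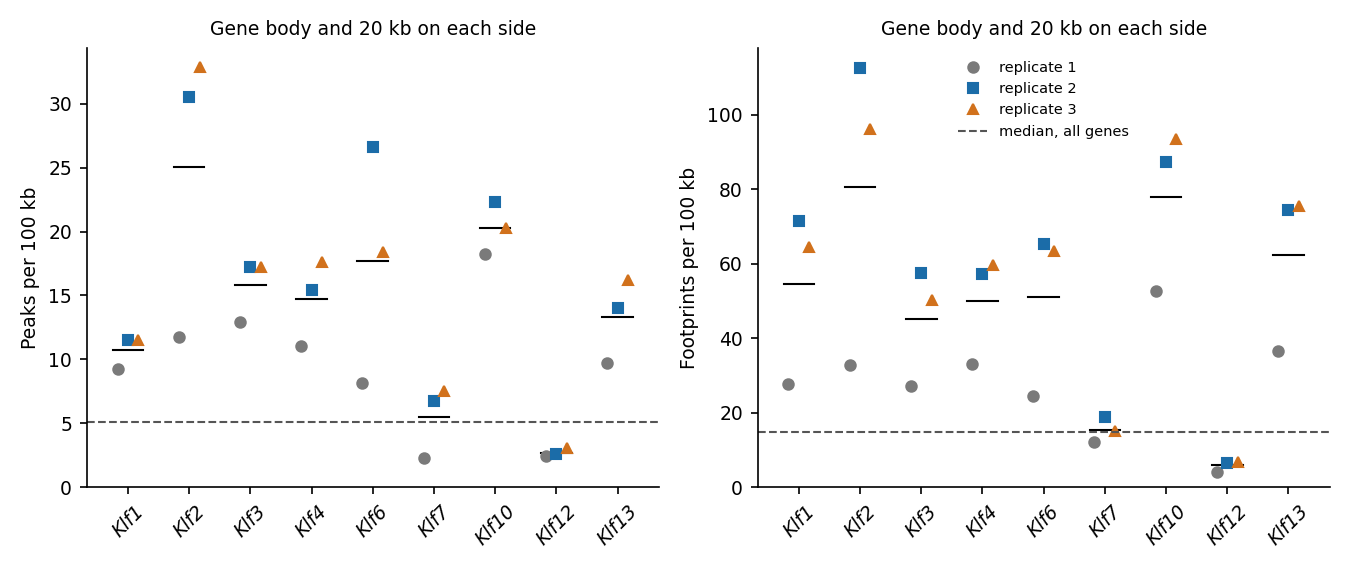
Peaks (left) and footprints (right) per 100 kb of gene body and 20 kb on each side for each KLF gene, with 1 point per replicate and a line for the mean. Klf2 has the highest mean in both panels, at 25.03 peaks and 80.5 footprints, with a wide spread, and it comes after Klf10 in footprints without replicate 2 (64.5 against 73.1) and after 4 other members in peaks with the better-scoring 50% of peaks (10.2). Klf12 has the lowest means, at 2.72 and 5.87, and the dashed lines mark the medians of all genes at 5.11 and 14.9.

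Klf1 (chr8:84901928-84905291) was closed at its start yet not empty. Its window held 4, 5 and 5 peaks and 5 regions, 4 of them in all 3 libraries. The region in Klf1 itself, chr8:84903081-84903300, lay in its second exon, 1263 bp from the start, with signals of 3.11, 8.46 and 6.497 and percentiles of 82.0, 93.5 and 90.3. A pair of the others were the promoters of the neighbours Gcdh and Dnase2a, and another, 11353 bp from the start at 80.5, 92.0 and 90.2, lay in an exon within Dnase2a and Mast1. The accessible DNA around Klf1 thus belonged to neighbours or to an exon and not to its promoter.

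The Klf1 exon site and the strongest intron site of Klf3, 10273 bp from its start at percentiles of 75.7, 91.5 and 91.8, are printed below because footprints of all 3 libraries covered a match to the CTCF motif in each. CTCF is an architectural protein that anchors chromatin loops. Capitals again mark bases in footprints of all 3 libraries.

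Klf1 exon site, chr8:84903101-84903300, plus strand: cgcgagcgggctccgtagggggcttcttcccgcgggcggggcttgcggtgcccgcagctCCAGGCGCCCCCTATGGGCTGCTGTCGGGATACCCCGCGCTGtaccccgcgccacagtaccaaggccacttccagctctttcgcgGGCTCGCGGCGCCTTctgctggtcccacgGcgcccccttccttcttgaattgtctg
Klf3 intron site, chr5:64813561-64813740, plus strand: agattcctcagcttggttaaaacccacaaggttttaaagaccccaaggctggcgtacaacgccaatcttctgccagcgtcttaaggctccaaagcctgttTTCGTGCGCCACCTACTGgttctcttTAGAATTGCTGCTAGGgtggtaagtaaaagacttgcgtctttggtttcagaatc

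The CTCF motif was searched as CC, any 3 bases, AG, any 2 bases and GGC, and matched on the minus strand of the genes. In the Klf1 exon the match 1238 bp from the start, GCCCCCTATGGG, had all 12 bases in footprints of every library, and a second match 1327 bp from the start had 5 of 12. In the Klf3 intron the match 10280 bp from the start, GCCACCTACTGG, had 11 of 12. Over all member windows a CTCF match lay in 2.99% ± 0.635 of footprints, against 5.03% ± 0.205 in the whole libraries (SD, n = 3).

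Replicates 2 and 3 had similar numbers of peaks, and the log2 ratio of signal in replicate 2 over replicate 3, centred on all promoters open in all 3 libraries, was compared at the members. At promoters the ratio was -0.03 for Klf2, -0.12 for Klf3, 0.36 for Klf4, -0.14 for Klf6, -0.01 for Klf7, -0.16 for Klf10, -0.29 for Klf12 and -0.16 for Klf13. Klf4 alone was above 0, and 91.7% of promoters had a lower ratio than Klf4, against 9.72% below Klf12. The median of the 8 was -0.13.

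Between the same libraries, 3 marker lists lay farther from 0 than the KLF promoters. Their median log2 ratios were -0.98 for natural killer markers, with 0 of 10 above 0, 1.07 for B cell markers, with 9 of 9 above 0, and 0.48 for endothelial markers. The medians were 0.03 for T cell, 0.03 for monocyte and macrophage and -0.09 for erythroid markers. The part of these marker differences in the ratios of the KLF genes was not tested.

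Over the 78 member regions with a peak in both libraries the median was -0.03, and 37 were higher in replicate 2. Over all 64695 such regions of the genome the middle 80% of ratios ran from -0.68 to 0.62, and of the member regions 6 lay above it and 4 below. Those farthest above were a region 7505 bp upstream of the Klf3 start (1.17), a pair in introns of Klf13 (27824 and 26824 bp from the start, 1.01 and 1.00) and an intron of Klf7 (34222 bp, 0.95). Those farthest below were introns of Klf12 (48738 bp from the start, -1.02) and of Klf13 (19454 bp, -0.94) and the region upstream of Klf6 (16071 bp, -0.82). Regions of Klf13 thus lay on both sides. The Klf3 and Klf7 regions and the pair in Klf13 were singled out after their ratios were seen.

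**Figure D5:**
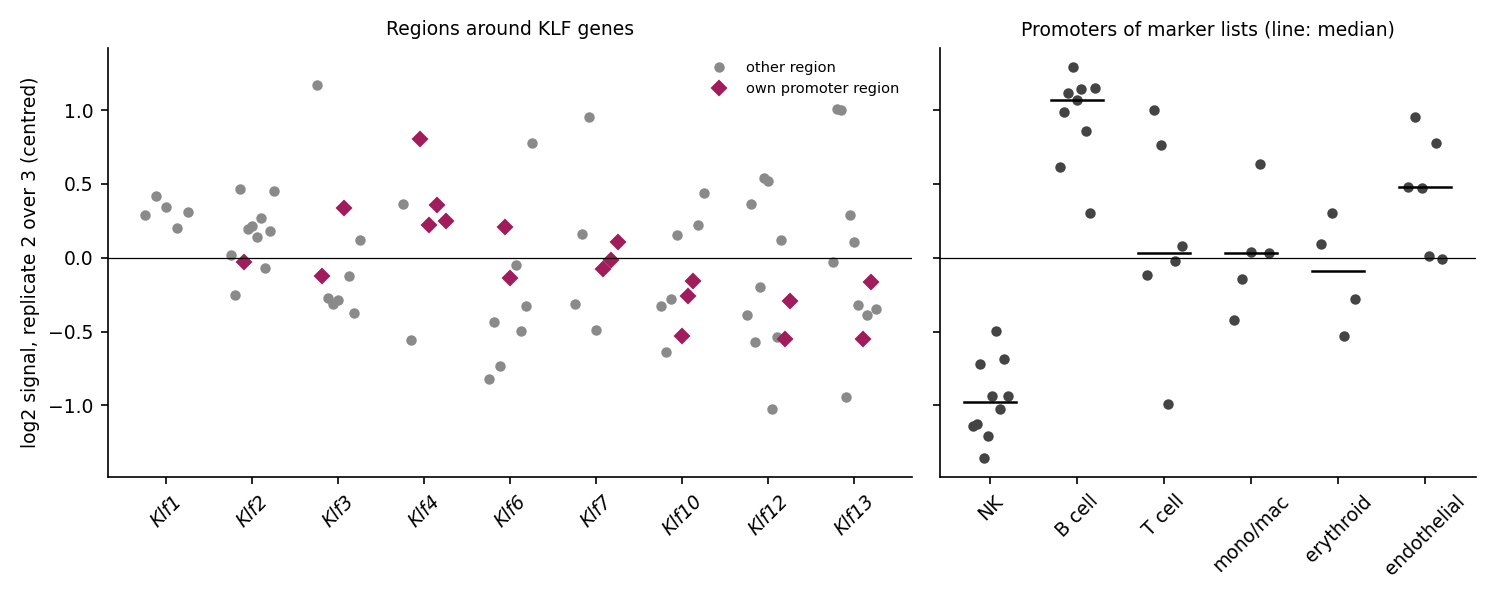
Log2 ratio of peak signal, replicate 2 over replicate 3, centred on all open promoters, for regions around each KLF gene (left; diamonds are the gene's own promoters) and for the promoters of marker lists (right; lines are medians). The strongest KLF promoters lie between -0.29 and 0.36, while natural killer markers have a median of -0.98 and B cell markers one of 1.07.

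The other genes of the SP and KLF family had open promoters in all 3 libraries in 9 of 17 cases, and Klf15, Klf17 and Sp7 had none in any library. The highest were Sp1 at a mean percentile of 99.4 ± 0.208 and Klf16 at 99.1 ± 0.654, and the lowest were Klf8 at 52.2 ± 32.2 and Klf5 at 78.4 ± 3.85 (SD, n = 3). Klf8 ranked at 15.3 in replicate 1, against 74.6 and 66.8 in replicates 2 and 3. Genes of KLF cofactors and regulators were open in 19 of 19 cases. They ran from Sin3a, a corepressor scaffold, at 98.5 ± 0.251 and Wwp1, a ubiquitin ligase, at 98.2 ± 1.23 to Fhl3, a LIM protein, at 53.0 ± 12.8 and Fbxw7, which recruits targets to a ubiquitin ligase, at 40.5 ± 19.8 (SD, n = 3).

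Among genes of lymphocyte trafficking known as targets of Klf2 in T cells, 5 of 8 were open in all 3 libraries. Selplg, the P-selectin ligand, was highest at 93.3 ± 4.94 and S1pr4, a sphingosine phosphate receptor, followed at 85.5 ± 7.33. S1pr1, the receptor for exit from lymph nodes, had 71.5 ± 17.5 and the chemokine receptor Cxcr3 had 69.6 ± 7.72 (SD, n = 3). These 5 all ranked below the Klf2 promoter, whose mean was 99.3, as did 96.8% of all genes open in all 3 libraries.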

How the data were processed

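DNase-seq of natural killer cells was measured in 3 libraries of 1 group. Which aligner and callers of peaks and footprints were used is not given in the sources used here. The assembly is mm10, per the labels. For each library the authors deposited 2 peak lists, whose signal per peak has no stated unit, 1 footprint list, whose score is the constant 0.01 and was not used, and 1 list of intervals with an FDR (q-value) of cut rate up to 0.05. The files give no read depth, so precision is given by the spread of the 3 libraries. No count of reads was available.

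The peak list with more entries was used, and signal was ranked within a library as a percentile. Start sites (54308) came from protein-coding transcripts of GENCODE M21, and a promoter was open where a peak overlapped 500 bp on either side by at least 1 bp. Peaks and footprints were assigned to a window by their middle. Motifs were counted in footprints that held at least 50% of the motif. An upper limit on a share of 0 used 3 counts and covers counting error only. The SD given with a mean is over 3 libraries, and no tests were run. Overlap code was checked on simulated intervals and against bedtools 2.31.1, with 0 differences. Tools were Python 3.11.15, numpy 2.4.6, pandas 2.3.3, pysam 0.24.0 and matplotlib 3.10.9.

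The members, gene lists and first 7 motifs were chosen with earlier results of these data known, and the MEF2 and TTATATA motifs after the sequences were seen. All members are named. Sites named are the strongest promoter region and the 2 strongest regions outside promoters found in all 3 libraries, and the 5 with the most footprints. From the SP and KLF, cofactor and trafficking lists the 2 highest and 2 lowest genes open in all 3 libraries are named, with those open in none. Marker lists are given by counts, and genes open in none are named for the T cell and erythroid lists only. Alternatives were other promoter widths, window sizes, the stricter peak list, the better-scoring 50% of peaks, other overlap rules, another centring and leaving out each library. A gene of the trafficking list is not reported here by name.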

Additional observations from a re-analysis of the deposited data

How the results depend on the processing

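With 1 group of 3 libraries there was no test to change. The number of KLF genes with an open promoter in all libraries was 8, with Klf1 as the exception, under every promoter width, peak list, threshold and overlap tried and without each library in turn. The median promoter percentile of the open members was 97.9, and 94.1 when the peak nearest the first start site was used. Without 1 library it ranged from 97.5 to 98.8. The median number of peaks per window was 10, and 5.67 with the better-scoring 50% of peaks. The median number of footprints was 26.7, and 41.7 with 50 kb on each side. The regions found in all libraries used numbered 49, and between 49 and 78 with 1 library left out, the 78 being those without replicate 1. The share of footprints with a GC box or CACCC box was 18.6%, 14.6% where the whole motif had to lie inside and 21.7% where 1 bp was enough, against 13.2%, 10.01% and 15.6% in the libraries. Among values of single members, 147 stayed within their limit and 19 did not, the limit being the SD of the 3 libraries for percentiles and a factor of 1.5 for numbers of peaks and footprints. No paired analysis was possible because there is only 1 group. Replicate 1, with the fewest peaks, limits what is found in all 3 libraries, and read depth is unknown.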
